A study of Mus musculus with 6 samples.

Results

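The mRNAs of the PI3K, Akt and mTOR signaling pathway were compared between injured mouse kidneys with and without bruceine A (BA), a quassinoid that the library labels call brucine A. The 42 genes were picked by name from the pathway (lipid kinases and their regulators, Akt, the mTOR complexes and their outputs), and all 42 were found among the 19176 rows of the expression table. Renal cortex came from male wild-type C57BL/6J mice aged 8 weeks at purchase, all of which underwent unilateral ischemia-reperfusion (UIR in the labels, UIRI here) of the left kidney and removal of the right kidney on day 13. The UIRI group (3 libraries) received vehicle and the UIRI + BA group (3 libraries) received BA intraperitoneally at 1 mg/kg each day, and tissue was taken on day 14. Sham kidneys were not analysed here. The tissue held tubular, interstitial, vascular and immune cells together, so fewer cells of a type and less RNA per cell cannot be told apart.

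Class I PI3K converts a membrane lipid into a docking signal that recruits the kinases Pdpk1 and Akt, and lipid phosphatases remove that signal. Akt restrains Gsk3, the FoxO transcription factors, Bad and the Tsc1-Tsc2 complex, and release of Rheb from the latter activates mTOR, which occurs in a complex with Rptor (mTORC1) or Rictor (mTORC2). Tubule cells use the pathway for growth, survival and transport, and its activity is set mainly by phosphorylation, which mRNA levels do not measure.

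The libraries held 16510720 to 38124164 reads on genes. UIRI replicate 3 was the deepest, at 2.04 times the median of the others, and stood apart from its group. On the first principal component (41.8% of the variance) it lay at 11.1, between UIRI + BA replicates 2 and 3 at 3.11 and 13.4, while UIRI replicates 1 and 2 lay at -32.5 and -25.5. The counts of the 42 genes at each p threshold and with separate groups are therefore also given without this library. The proximal tubule markers Lrp2 (2912 to 7057 normalized counts) and Slc34a1 (7708 to 14182 normalized counts) were abundant in every library, as the label of renal cortex requires. A normalized count is the number of reads on a gene divided by a size factor of the library. Urothelium RNA was scarce but uneven. Summed over its 6 markers, UIRI replicate 3 reached 524 on this scale and UIRI + BA replicate 3 reached 320. The remaining UIRI libraries held only 126 and 119, and the remaining treated ones 30.1 and 31.2. Whether the dissected tissue differed between libraries was not tested.

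Between UIRI and UIRI + BA the pathway mRNAs differed little. No gene passed an adjusted p of 0.05 in limma's test (a linear model with moderated variance, Benjamini-Hochberg adjustment over all rows), neither among the 42 nor among all genes tested (0% of genes called). The smallest adjusted p among the 42 was 0.486. At an unadjusted p below 0.05, 1 of the 42 was found (Irs2, higher with BA), where the share of all genes was 10.3%. DESeq2 and edgeR on the recovered reads placed 0 of the 42 below 0.05, adjusted or unadjusted. DESeq2 called 1.49% of all genes after adjustment and 7.88% before, and edgeR 0% and 9.93%. For these tools, here and below, all genes means those that got a p-value. They were 14340 for DESeq2 after adjustment (213 called), 19171 before it and 17155 for edgeR. Of all genes, 1087 (5.67%) were higher and 884 (4.61%) lower at that unadjusted threshold, a split of 925 and 1065 with upper quartile scaling. Within the pathway 29 genes had a higher and 13 a lower mean log2 value with BA, and their median was 0.08 on the log2 scale against -0.01 over all genes. The median size of the difference, without its sign, was 0.11 on the log2 scale for the pathway and 0.14 for all genes, and 18 of the 42 differed by less than 0.1.

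The intervals limit how large a difference these libraries leave room for. The 95% interval of limma's log2 fold change lay within a 1.5-fold difference in either direction for 37 of the 42 genes and within 2-fold for 41. Irs1, the gene with the fewest reads (26 to 176 per library), was the 1 outside. For 2 of the 42 genes the groups were fully separate, against 14.4% of all genes. These were Pik3c3, higher with BA as were 7.45% of all genes, and Akt1, lower with BA as were 6.96%.

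**Figure D1:**
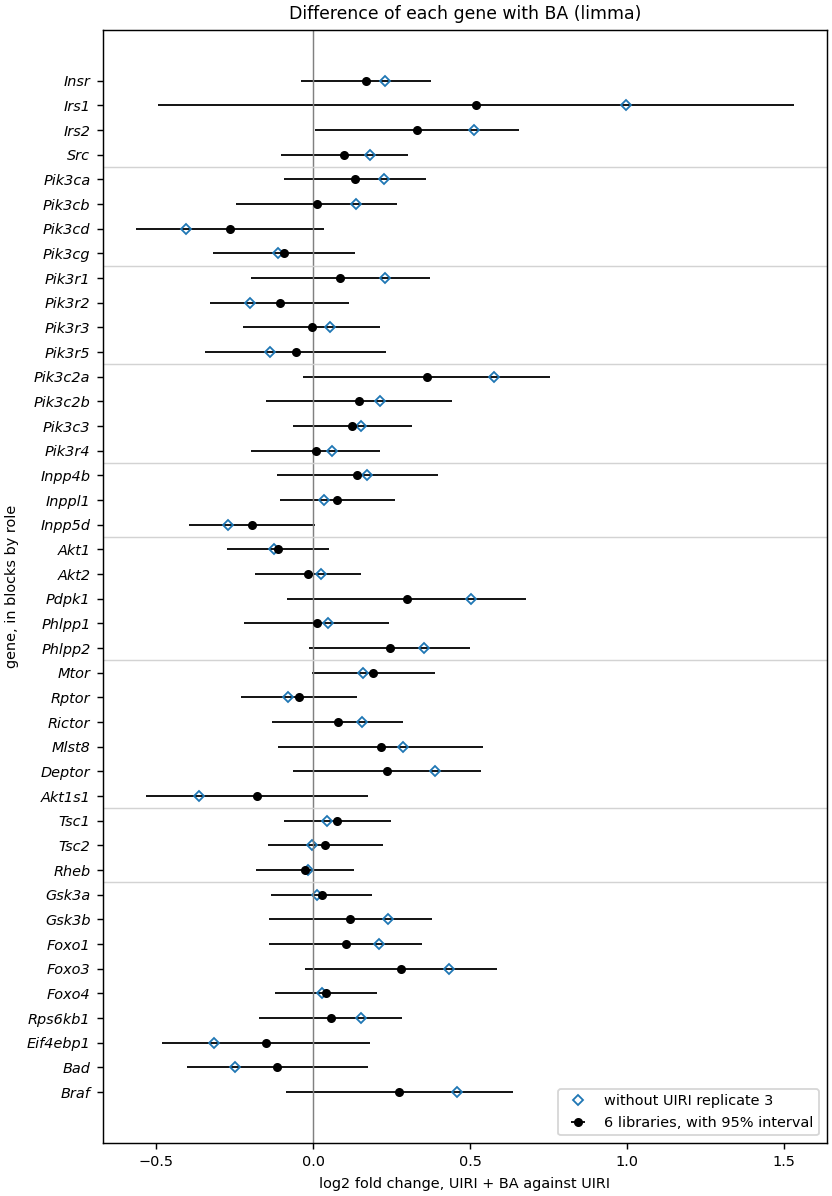
Log2 fold change of each of the 42 genes with BA (x axis, log2 units; UIRI + BA against UIRI, limma), in blocks by role. Black points with bars are the estimates and 95% intervals from 6 libraries, and open blue diamonds the estimates without UIRI replicate 3; only the bar of Irs2 stays clear of 0, and most diamonds lie farther from 0 than the points.

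On the receptor side, all 4 genes had higher means with BA. Irs2, an adaptor that carries signals from the insulin and IGF receptors to PI3K, read 587, 628 and 886 normalized counts in the UIRI libraries. The treated libraries held 899, 877 and 822 of it. UIRI replicate 3 lay inside the range of the treated libraries, so the groups overlapped although the other UIRI libraries lay below all treated ones. The log2 fold change of Irs2 was 0.33 (standard error 0.14), with an unadjusted p of 0.0476 and an adjusted p of 0.486 from limma. This unadjusted call was lost with upper quartile scaling and quantile normalization, where the 1 gene below 0.05 was Inpp5d in place of Irs2. Irs1, the related adaptor, was present at far lower levels, with 29.5, 41.6 and 96.4 normalized counts in UIRI. UIRI + BA replicates 1 and 3 held 106 and 79.3, and replicate 2 lay next to UIRI replicate 2. Its log2 fold change of 0.52 had an interval from -0.49 to 1.53. Insr, the insulin receptor, ranged from 2503 to 2852 normalized counts in UIRI against 2787 to 3270 with BA (log2 fold change 0.17, adjusted p 0.549 from limma). Src, a membrane-bound tyrosine kinase, read 1073, 1022 and 1243 in UIRI against 1204, 1186 and 1174 with BA. The treated libraries thus lay inside the UIRI range, and the difference was 0.10 on the log2 scale (adjusted p 0.698 from limma).

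The promoters of both Irs genes are shown because both hold a pair of short motifs that few promoters hold together, and Irs2 is the 1 gene with an unadjusted p below 0.05. RefSeq windows (GRCm38.p6) were held for 37 of the 42 genes, with 50 windows in all, so a gene can have more than 1. Shares below are of windows, and named genes are counted once. In the 250 bases before each start, TCACGTG, an E-box, was searched on both strands. It was found in 3.13% of all windows and in Irs1, Irs2 and Rheb among the 37. TGTTTTG, the core of an insulin response element, was found on either strand in 5.56% of all windows and in Irs1 and Irs2 among the 37. Both motifs, at any position in the window, were found in 0.152% of all windows. The last 120 bases before the start are given 5′ to 3′ on the minus strand, at chr1:82291440-82291559 for Irs1 and chr8:11008930-11009049 for Irs2, with both sets of letters in capitals.
Irs1: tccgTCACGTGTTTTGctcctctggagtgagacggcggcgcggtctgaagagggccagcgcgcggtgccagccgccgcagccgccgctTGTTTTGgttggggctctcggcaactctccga
Irs2: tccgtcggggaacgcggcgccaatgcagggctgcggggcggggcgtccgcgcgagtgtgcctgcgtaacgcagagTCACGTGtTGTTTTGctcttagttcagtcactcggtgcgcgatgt
The E-box began 116 bases before the start of Irs1 and 45 before that of Irs2. In Irs1 it overlapped the first TGTTTTG, at 111 bases, and a second lay at 32 bases, while in Irs2 a single base separated it from TGTTTTG at 37 bases. These matches describe letters and are no evidence of binding in these kidneys. The distances are from the RefSeq starts. GENCODE M21, used for exon lengths, starts Irs1 at chr1:82291416 and Irs2 at chr8:11008458. Both lie farther downstream, so the distances from them are longer.

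Among the class I catalytic subunits, Pik3ca, the broadly expressed p110 alpha, read 2242, 2097 and 2623 in UIRI against 2743, 2364 and 2510 with BA. The groups overlapped, and the log2 fold change was 0.13 (interval -0.09 to 0.36, adjusted p 0.644 from limma). Pik3cb, its other broadly expressed relative, had the same mean in both groups, 687 ± 109 and 687 ± 14.8 (SD, n = 3 each). Pik3cd, the catalytic subunit enriched in leukocytes, read 1595, 1759 and 1253 in UIRI against 1203, 1437 and 1173 with BA. UIRI replicate 3 again lay within the treated range, and the log2 fold change was -0.26 (interval -0.56 to 0.03, adjusted p 0.525 from limma). Pik3cg, the class IB subunit of immune cells, differed by -0.09 and its adaptor Pik3r5 by -0.06 on the log2 scale. The lipid phosphatase Inpp5d (SHIP1), also a gene of blood cells, read 1437, 1539 and 1269 in UIRI against 1282, 1224 and 1190 with BA (log2 fold change -0.20, unadjusted p 0.0552, adjusted p 0.495 from limma). All 4 of these immune genes had lower means with BA. Beside them, the 12 leukocyte markers (among them Ptprc and Tyrobp) all had lower means with BA (11 of 12 in DESeq2 and edgeR), at a median difference of -0.23 on the log2 scale. At an unadjusted p below 0.05 there were 0 of the 12 with limma, 3 with upper quartile scaling, 3 with DESeq2, 2 with edgeR and 8 without UIRI replicate 3. The shares of all genes in those fits were 10.3%, 10.4%, 7.88%, 9.93% and 25.2%. Their summed normalized count ran from 35776 to 47139 in UIRI against 33137 to 40609 with BA. Whether the leukocyte content took part in the lower values was not tested.

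The regulatory subunits, which hold and restrain the catalytic ones, stayed close between groups. Pik3r1, the main one here, read 3717, 3749 and 4997 in UIRI against 4814, 3939 and 4399 with BA, so the highest and both lowest values were in UIRI. Its log2 fold change was 0.09 (interval -0.20 to 0.37, adjusted p 0.812 from limma). Pik3r2 differed by -0.11 and Pik3r3 by less than 0.01 on the log2 scale. In the class II and III kinases, which act in endocytosis and autophagy, all 4 means were higher with BA, or 3 of the 4 with upper quartile or quantile scaling. Pik3c3, the class III kinase of autophagy, read 779, 701 and 781 in UIRI against 856, 821 and 789 with BA. No treated library fell into the UIRI range, and the log2 fold change of Pik3c3 was 0.13 (adjusted p 0.611 from limma). An exact two-sided permutation test gave p = 0.1, the smallest that 3 against 3 allow. Full separation always gives this p, so it adds nothing to the separation. Pik3c2a, a class II kinase of endosomes, ran from 1120 to 1848 in UIRI against 1546 to 1979 with BA (log2 fold change 0.36, unadjusted p 0.0669). The phosphatases Inppl1 (SHIP2) and Inpp4b differed by 0.08 and 0.14 on the log2 scale, with overlapping groups.

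**Figure D2:**
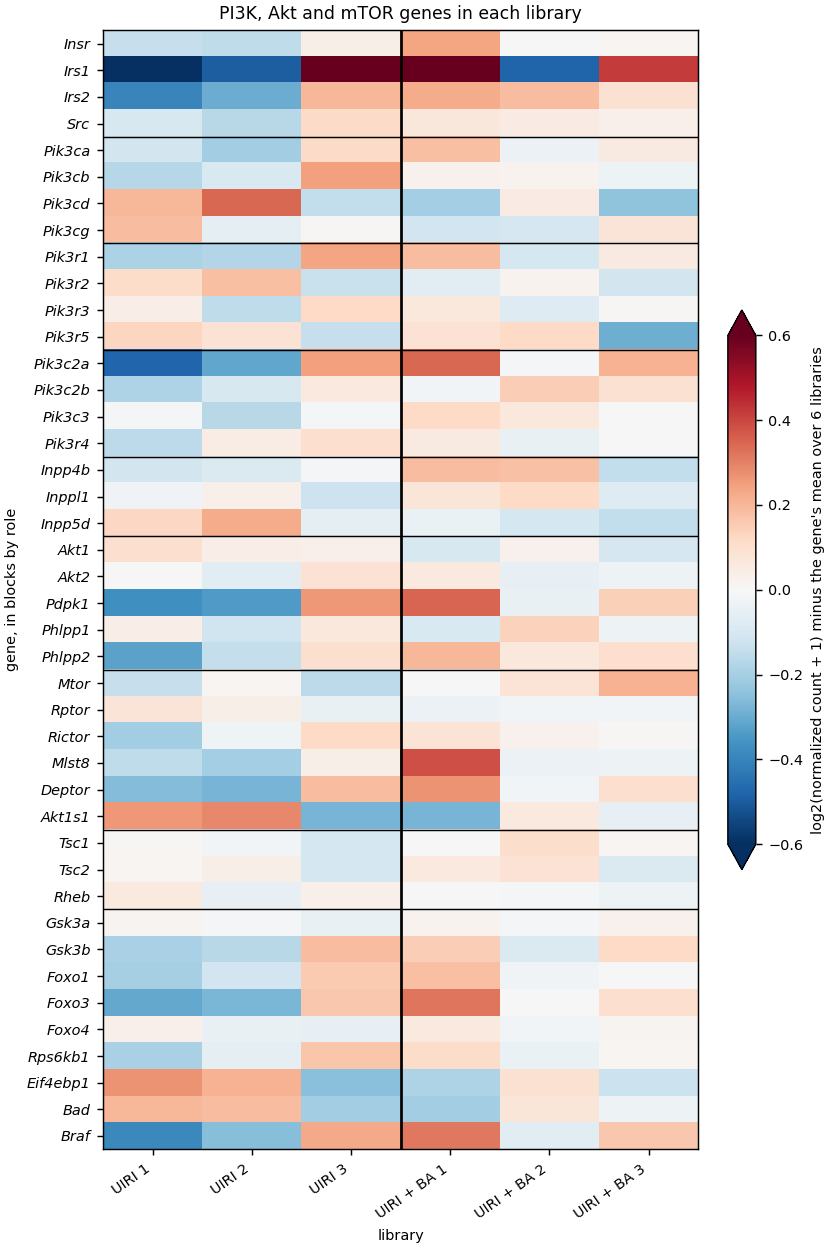
Heat map of the 42 genes (rows, in blocks by role) in the 6 libraries (columns); colour is log2(normalized count + 1) minus the gene's mean over the libraries, in log2 units. UIRI replicate 3 shares the colours of UIRI + BA replicate 1 in many rows, such as Pdpk1, Foxo3 and Akt1s1, while UIRI replicates 1 and 2 show the opposite colours.

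Akt1, the more abundant of the measured Akt kinases, read 4009, 3851 and 3825 normalized counts in UIRI against 3506, 3816 and 3488 with BA. Every treated library lay below every UIRI library, but the highest treated value and the lowest UIRI value were almost equal. The means were 3895 ± 99.6 and 3603 ± 184 (SD, n = 3 each). The log2 fold change of Akt1 was -0.11 (interval -0.28 to 0.05, adjusted p 0.598 from limma). An exact two-sided permutation test gave its smallest possible p of 0.1, which full separation always gives. Akt2, the isoform tied to insulin action, read 2182, 2093 and 2318 in UIRI against 2274, 2109 and 2138 with BA, with a log2 fold change of -0.02 (interval -0.18 to 0.15). Its sign turned when UIRI replicate 3 or UIRI + BA replicate 2 was left out. Pdpk1, the kinase that activates Akt, read 1227, 1252 and 1895 in UIRI against 2018, 1535 and 1746 with BA (log2 fold change 0.30, adjusted p 0.561 from limma). Of the Akt phosphatases, Phlpp2 ranged from 545 to 728 in UIRI against 712 to 782 with BA (log2 fold change 0.24, unadjusted p 0.0596), and Phlpp1 differed by 0.01.

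Of the mTOR complex genes, the kinase Mtor itself read 1220, 1353 and 1203 in UIRI against 1339, 1420 and 1554 with BA. Only the lowest treated library fell below the highest UIRI library. The means of Mtor were 1259 ± 82.1 and 1438 ± 108 (SD, n = 3 each), with a log2 fold change of 0.19 (unadjusted p 0.0549, adjusted p 0.495 from limma). With each library left out in turn this value of Mtor ran from 0.13 to 0.24, and UIRI replicate 3 was the lowest library. Rptor, the mTORC1 scaffold, read 614, 597 and 564 in UIRI against 567, 575 and 576 with BA. Rictor, the mTORC2 scaffold, read 1376, 1562 and 1726 in UIRI against 1686, 1619 and 1600 with BA. Both scaffolds overlapped between groups, with log2 fold changes of -0.05 and 0.08. Deptor, an inhibitor of mTOR, ran from 1459 to 2018 in UIRI against 1751 to 2135 with BA (log2 fold change 0.24), and Akt1s1, the mTORC1 inhibitor PRAS40, from 673 to 998 and from 674 to 852 (log2 fold change -0.18). Mlst8, a shared subunit, differed by 0.22 with overlapping groups. Upstream of mTORC1, Tsc1, Tsc2 and Rheb were among the most even genes of the pathway, at 0.08, 0.04 and -0.03 on the log2 scale.

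Among the outputs, Gsk3a ranged over only 998 to 1047 normalized counts across all libraries (log2 fold change 0.03, interval -0.13 to 0.19), and Gsk3b differed by 0.12. The transcription factor Foxo3 read 1651, 1692 and 2288 in UIRI against 2551, 2046 and 2191 with BA (log2 fold change 0.28, unadjusted p 0.0675). Its relatives Foxo1 and Foxo4 differed by 0.10 and 0.04. Rps6kb1, the mTORC1 substrate S6 kinase, differed by 0.06, and Eif4ebp1, the translation repressor that mTORC1 inactivates, by -0.15. The death promoter Bad differed by -0.11, and Braf, a kinase of the parallel MAPK pathway, by 0.27. None of these 9 output genes had an unadjusted p below 0.05.

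Leaving out UIRI replicate 3 changed the picture more than any other single library. Without it, limma gave 20 of the 42 (47.6%) an unadjusted p below 0.05, against 25.2% of all genes. Of these, 14 were higher with BA (13.7% of all genes) and 6 lower (11.5%). An adjusted p below 0.05 was then found for 5 of the 42, against 5.02% of all genes, and all 5 were higher with BA (3.22% of all genes). They were Irs2 (log2 fold change 0.51, adjusted p 0.0172), Pik3c2a (0.57, 0.0240), Pdpk1 (0.50, 0.0356), Foxo3 (0.43, 0.0379) and Deptor (0.39, 0.0429), all from limma. With any other library left out, 0 to 3 of the 42 had an unadjusted p below 0.05, where all genes gave 808 to 1860. An adjusted one was found for 0 of the 42 and 0 of all genes. Without UIRI replicate 3 the groups no longer overlapped in 28 of the 42 genes (66.7%), against 45.4% of all genes. Of the 28, 20 were higher with BA (23% of all genes) and 8 lower (22.4%). In 15 of these 28 the value of UIRI replicate 3 lay within the range of the treated libraries. The same held in 4203 of the 8710 such genes among all. As a share of each whole set, this was 35.7% of the 42 and 21.9% of all genes. The 42 were not tested as a set. The labels give no reason to leave this library out, so the values with all 6 libraries stand first. UIRI replicate 3 was singled out from these same expression values, where it lay among the treated libraries. Counts and p-values without it therefore describe the libraries and are no test of BA.

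The proximal tubule markers differed along the same libraries. All 14 proximal tubule markers had higher means with BA, and limma gave 13 of the 14 an unadjusted p below 0.05, against 10.3% of all genes. An adjusted p below 0.05 was found for 0 of the 14 with limma and edgeR (0% of all genes) and for 8 with DESeq2 (1.49%). With limma it was found for 13 when UIRI replicate 3 was left out (5.02% of all genes). The unadjusted counts of DESeq2 and edgeR were 10 and 11, against 7.88% and 9.93% of all genes. On the log2 scale these markers averaged 10.66, 10.75 and 11.40 over UIRI replicates 1 to 3, and 11.66, 11.49 and 11.80 over the treated libraries in the same order, so UIRI replicate 3 lay nearest the treated group. The 42 pathway genes had a median deviation from their own means of -0.10, -0.07 and 0.05 (log2) in UIRI against 0.07, 0.00 and 0.01 with BA, again with UIRI replicate 3 among the treated libraries. The 9 fibroblast and myofibroblast markers all had lower means with BA, 5 of them at an unadjusted p below 0.05 (4.61% of all genes were lower at that p), among them Col1a1 (log2 fold change -0.32). This list did not follow UIRI replicate 3, whose mean log2 value of 12.47 lay between those of UIRI replicates 2 (12.28) and 1 (12.58) and above every treated library. The treated libraries averaged 11.89, 11.98 and 12.39, so UIRI + BA replicate 3 lay above UIRI replicate 2 and the groups overlapped. DESeq2 gave 2 of the 9 an adjusted p below 0.05 (1.49% of all genes), and limma and edgeR 0. Exon length, the union of all annotated exons of a gene, went along with the differences too. Across the 42 genes, Spearman's rho between the log2 fold change and the exon length in GENCODE M21 was 0.50, and it was 0.25 across 12515 genes that averaged 100 or more normalized counts. The 29 genes with higher means had a median exon length of 9.09 kb and the 13 with lower means one of 5.55 kb. Genes of 1 library share its depth and RNA, so these coefficients are descriptions, and the part of cell content or RNA quality in the pathway values was not tested.

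**Figure D3:**
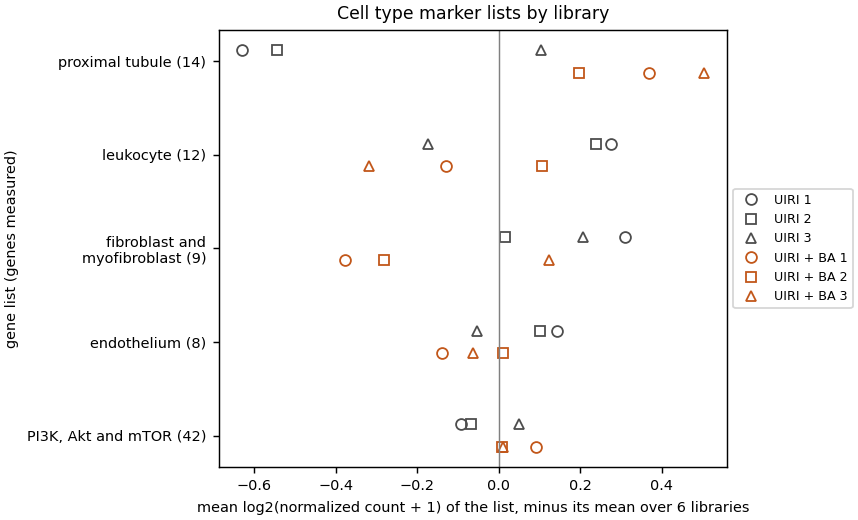
Mean log2(normalized count + 1) of each gene list minus its mean over the 6 libraries (x axis, log2 units), for 4 cell type marker lists and the 42 pathway genes; grey symbols are UIRI and orange symbols UIRI + BA libraries. UIRI replicate 3 (grey triangle) lies on the treated side of the other UIRI libraries for the proximal tubule, leukocyte, endothelial and pathway lists.

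Levels of different genes were compared per kb of exon, with all annotated exons of a gene joined. This length can exceed that of a single transcript, so the order across genes is approximate. Akt1 stood first, at 915 normalized counts per kb, and no other gene reached its range of 851 to 978. Inppl1 (431) and Pik3r1 (424) followed and did not differ beyond their spread. Then came Gsk3a (355) and Foxo4 (351), likewise alike within their spread, Rheb (322) and Akt2 (306). Within the class I catalytic subunits the order was Pik3ca (267), Pik3cd (224), Pik3cb (95.5) and Pik3cg (62.4), with overlapping ranges for the first pair. Irs2 stood at 124 per kb and Irs1, the lowest of the 42, at 7.20. Of the mTOR scaffolds, Rictor (94.2) lay above Rptor (43.2) in every library. From Rheb down to Rptor, each gene overlapped its neighbour in the order.

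**Figure D4:**
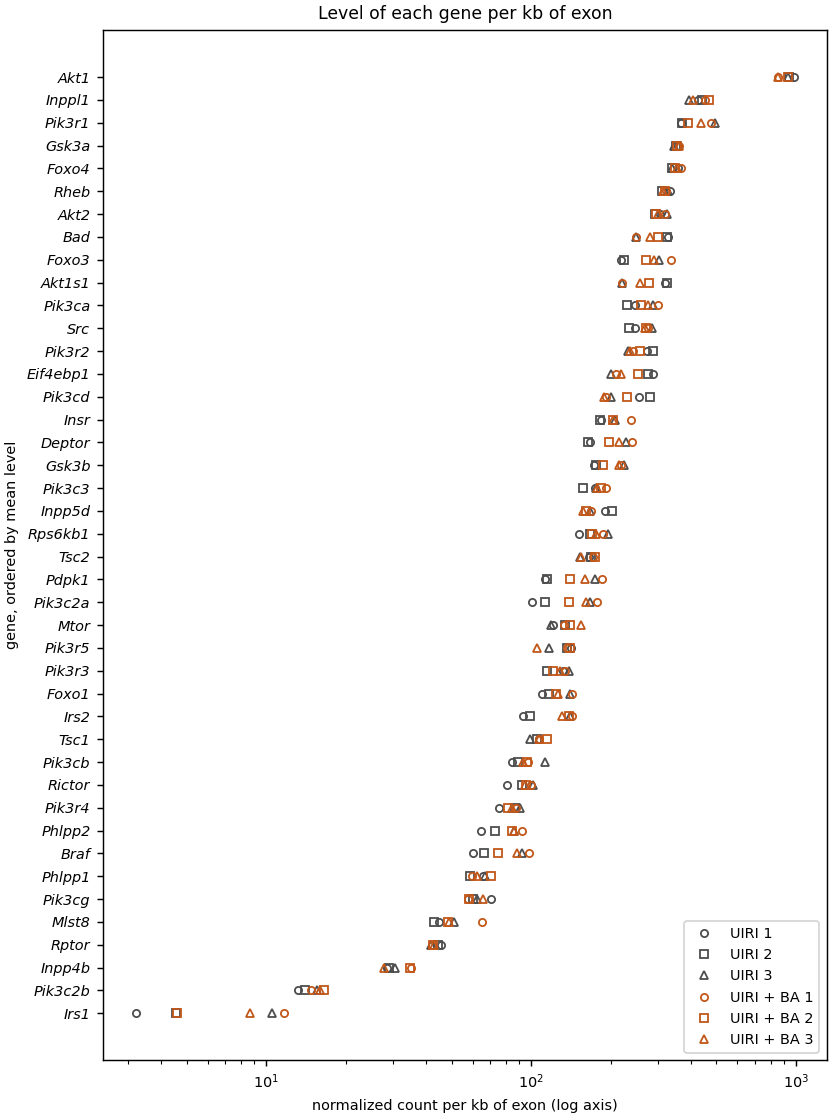
Normalized count per kb of exon (x axis, log scale) of the 42 genes, ordered by their mean; each symbol is 1 library, grey for UIRI and orange for UIRI + BA. Akt1 stands alone at the top and Irs1 at the bottom, and the groups lie together for most genes.

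Ratios between partners within a library do not depend on its scaling. The log2 ratio of Akt2 to Akt1 was -0.83 ± 0.09 in UIRI and -0.73 ± 0.12 in UIRI + BA (SD, n = 3 each). That of Pik3cd to Pik3ca was -0.49, -0.25 and -1.07 in UIRI against -1.19, -0.72 and -1.10 with BA, a difference of -0.40. The ratios of Rptor to Rictor and of Pik3r1 to Pik3ca differed by -0.12 and -0.05 on the log2 scale. All 4 ratios overlapped between the groups, with exact two-sided permutation p-values of 0.2 to 0.5 (0.4 to 0.5 after Benjamini-Hochberg adjustment over the 4).

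Beyond the 42, 31 further PI3K and Akt genes and 44 further mTOR genes were measured. With limma, 6 of the 31 (4 higher with BA, 2 lower) and 2 of the 44 (1 each way) had an unadjusted p below 0.05, against 10.3% of all genes, and 0 an adjusted one. DESeq2 and edgeR each gave 5 of the 31 and 2 of the 44, against 7.88% and 9.93% of all genes. After adjustment DESeq2 called 1 of the 44, against 1.49% of all genes. The largest difference among these 8 genes was in Sgk2, an Akt-related kinase of tubule transport, which read 376, 435 and 632 in UIRI against 689, 671 and 783 with BA (log2 fold change 0.60, adjusted p 0.332 from limma). Rragd, a Rag GTPase that brings mTORC1 to the lysosome, read 1825, 2041 and 2303 in UIRI against 2900, 2815 and 2592 with BA. The groups did not overlap for Rragd, and its log2 fold change was 0.43 (adjusted p 0.249 from limma). Inpp5j, a lipid phosphatase, was higher by 0.44, and Trib2 and Hsp90aa1 by 0.23 and 0.25. Sesn1, a stress-induced inhibitor of mTORC1, was lower at -0.30, as were Pik3ap1, an adaptor of B cells and macrophages, at -0.27 and Tbc1d4, an Akt substrate in glucose transport, at -0.20. The count of 8 became 3 without UIRI + BA replicate 3, 4 and 5 without UIRI replicates 1 and 2, and 23 without UIRI replicate 3. Of all genes, 1612, 808, 1339 and 4838 were found in those fits, against 1971 with all 6 libraries. After adjustment, limma without UIRI replicate 3 called 2 of the 31 and 2 of the 44, against 5.02% of all genes.

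Genes listed as targets of FoxO factors and of mTORC1 and Atf4 were counted next. Whether these regulators set their levels here was not tested. Of 20 FoxO target genes, limma gave 5 an unadjusted p below 0.05, 4 of them higher with BA, against 10.3% of all genes called and 5.67% higher. Without UIRI replicate 3 it gave 9 of the 20, against 25.2% of all genes. An adjusted p below 0.05 was found for 0 of the 20 with limma and edgeR on all 6 libraries. DESeq2 gave 2, both higher with BA, against 1.49% of all genes called. Limma without UIRI replicate 3 gave 3, against 5.02% of all genes. Pck1, the rate-limiting enzyme of gluconeogenesis, read 733, 748 and 1398 in UIRI against 1704, 1778 and 2207 with BA, without overlap (log2 fold change 1.04, adjusted p 0.237 from limma). G6pc (0.86), Pdk4 (0.69) and Cat (0.33) were higher as well, and Fbxo32, a muscle atrophy ubiquitin ligase, was lower at -0.32. Pck1, G6pc and Cat are also proximal tubule genes, whose markers were higher in the same libraries, and their part was not tested. Of 20 genes listed as mTORC1 and Atf4 targets, which act in amino acid supply and stress, limma gave 3 an unadjusted p below 0.05. All 3 were lower with BA, against 10.3% of all genes called and 4.61% lower. The count was 2 with DESeq2 and with edgeR (7.88% and 9.93% of all genes). It was 9 (2 higher, 7 lower) when UIRI replicate 3 was left out, against 25.2% of all genes (13.7% higher, 11.5% lower). After adjustment there were 0 with limma and edgeR on all 6 libraries, and DESeq2 called 1, against 1.49% of all genes. Limma without UIRI replicate 3 called 2 after adjustment, against 5.02% of all genes. The cystine carrier gene Slc7a11 read 80.4, 79.9 and 90.9 in UIRI against 46.4, 53.8 and 52.2 with BA (log2 fold change -0.71, adjusted p 0.255 from limma). The stress gene Nupr1 was lower by a similar order (-0.47, adjusted p 0.225 from limma), and so was Trib3 (-0.49), while Atf4 itself differed by -0.15 and Asns and Phgdh had higher means (0.20 and 0.18). The 8 target genes became 5 without UIRI replicate 1 or UIRI + BA replicate 1 and 18 without UIRI replicate 3. Of all genes, 808, 1270 and 4838 were found in those fits, against 1971 with all 6 libraries.

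**Figure D5:**
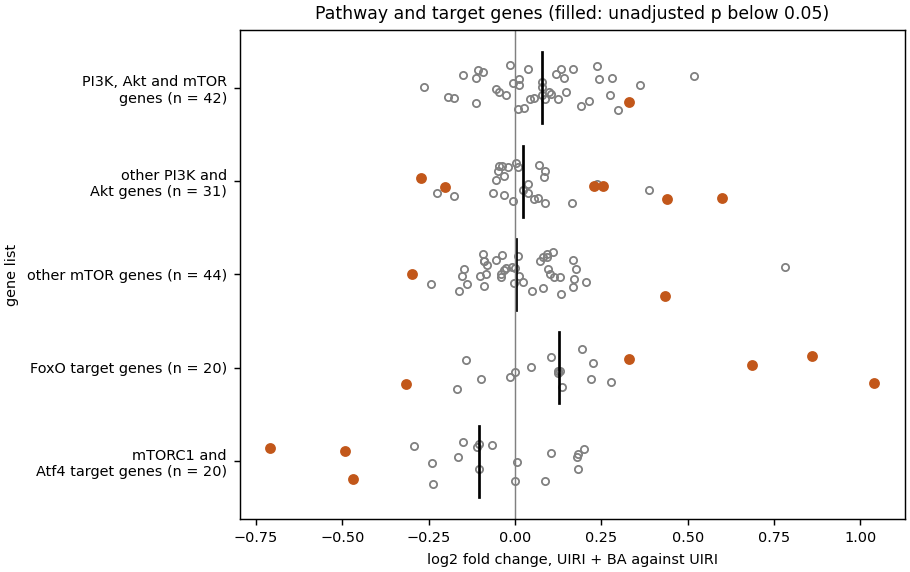
Log2 fold change with BA (x axis, log2 units) of every measured gene in 5 lists (rows); each point is a gene, filled orange at an unadjusted p below 0.05 (limma), and the black line is the list's median. The pathway genes hold 1 filled point, and the FoxO and Atf4 target lists hold filled points mainly to the right and to the left of 0.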

How the data were processed

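HISAT2, FeatureCounts and DESeq2 are the tools that the authors' methods name for alignment, counting and testing; the genome build is not given in the sources used here. The authors deposited a signal for each gene and library, which equals reads over the size factor of that library, although the methods name FPKM. In every library 100% of the values came out as whole reads (within 0.01). The same table holds the authors' fold changes and p-values, and further tables hold their enrichment results; none was used. No column of values per library went unused.

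The main test was limma 3.58.1 (R 4.3.3) with an intensity trend on log2(value + 1), all rows and no covariate; the pseudocount of 1 understates changes of low genes. DESeq2 1.42.0 and edgeR 4.0.16 (quasi-likelihood) were run on the recovered reads. Each tool was tested on simulated data. Single ratios and genes were compared with an exact permutation test (scipy 1.17.1). Other alternatives were a pseudocount of 0.1, a filter, 2 scalings, a replicate block and each library left out. Depth ran from 16510720 to 38124164 reads, and 41 of the 42 genes had at least 100 reads in every library.

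All 42 genes could be named; values in every library were given for those with an unadjusted p below 0.05 or without overlap, and for Pik3ca, Akt1, Src, Mtor, Akt2, Pik3r1, Rptor and Rictor, and further genes were given so after their values were seen. Of the other lists, genes with an unadjusted p below 0.05 were named, up to 8 a list; Atf4, Asns, Phgdh and the markers were named outside this rule. The 42 genes and all lists were chosen with earlier results of these data known. The other marker lists (thick limb, distal tubule, collecting duct, podocyte, endothelium, urothelium) had 1 of 7, 0 of 4, 0 of 7, 0 of 5, 1 of 8 and 0 of 6 genes at an unadjusted p below 0.05. The share of all genes was 10.3%. Exon lengths and symbols came from GENCODE M21 (GRCm38) by symbol alone, and promoters from RefSeq.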

Additional observations from a re-analysis of the deposited data

How the results depend on the processing

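Of Irs2, Pik3c3, Akt1, Pik3ca, Src, Mtor, Akt2, Pik3r1, Rptor and Rictor, only Akt2 and Rictor changed the sign of their log2 fold change in any alternative. Among the rest of the 42, Pik3cb, Pik3r3, Pik3r4, Pik3r5, Phlpp1, Tsc2 and Rps6kb1 changed sign in some fit without 1 library. Without 1 library, Akt2 ran from -0.050 to 0.024 (the latter without UIRI replicate 3; leaving out UIRI + BA replicate 2 gave 0.0059) and Rictor from -0.0066 (without UIRI replicate 1) to 0.16. Irs2 passed the adjusted threshold only without UIRI replicate 3. Over the fits without 1 library, the genes with an adjusted p below 0.05 ran from 0 to 962 of all and from 0 to 5 of the 42. At an unadjusted p below 0.05 they ran from 808 to 4838 of all, from 0 to 20 of the 42, from 3 to 23 of the further pathway genes and from 5 to 18 of the target genes. Genes of the 42 without overlap ran from 4 to 28, and the median log2 fold change of the 42 from 0.046 to 0.14. The log2 ratio of Pik3r1 to Pik3ca, -0.05, ran from -0.098 to 0.0021 and turned without UIRI replicate 3. DESeq2 gave 213 of all genes at an adjusted p below 0.05, and both DESeq2 and edgeR gave 0 of the 42 at an unadjusted p below 0.05. Quantile normalization left 1 of the 42 without overlap. The cause of these changes was not tested, and the fits without 1 library also held fewer samples.

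The labels do not say whether the replicate numbers pair libraries. Deviations of same-numbered libraries from their group means correlated at -0.24, 0.30 and 0.15. Those of differently numbered libraries correlated at -0.41 to 0.24. With 3 libraries per group these deviations depend on each other, so they cannot decide whether libraries were paired. With a replicate block, 6 of all genes had an adjusted p below 0.05, and 3 of the 42 genes (Irs2, Pik3cd and Pik3c2a) an unadjusted one, against 2106 of all genes (11.0%).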
